A study of Mus musculus with 8 samples.

Results

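The 33 genes described here encode the enzymes and transporters of glycolysis and lactate handling, together with the kinases that switch off pyruvate dehydrogenase. They were chosen by gene symbol, and all 33 were found among the 49641 gene entries of the deposited expression table. By role they are 2 glucose transporters (Slc2a1, Slc2a3), 9 enzymes of upper glycolysis (Hk1, Hk2, Gpi1, Pfkl, Pfkm, Pfkp, Aldoa, Aldoc, Tpi1) and 4 regulators of the PFKFB family (Pfkfb1, Pfkfb2, Pfkfb3, Pfkfb4). The others are 9 enzymes of lower glycolysis (Gapdh, Pgk1, Bpgm, Pgam1, Pgam2, Eno1, Eno2, Eno3, Pkm), 5 genes of lactate and monocarboxylate handling (Ldha, Ldhb, Ldhd, Slc16a1, Slc16a3) and 4 pyruvate dehydrogenase kinases (Pdk1, Pdk2, Pdk3, Pdk4).

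Glycolysis splits glucose to pyruvate, and pyruvate is either reduced to lactate by lactate dehydrogenase or passed into mitochondria and oxidised by the pyruvate dehydrogenase complex. The pyruvate dehydrogenase kinases phosphorylate and inhibit that complex, which keeps pyruvate away from oxidation. Pluripotent stem cells are known for high glycolytic flux and lactate output also where oxygen is present, and Myc and the hypoxia-inducible factors are well-known transcriptional activators of many of these genes.

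RNA was sequenced from 8 libraries of mouse embryonic stem cells, 2 per group, in 4 groups. The siMbnl1/2 group was Dgcr8 knockout (KO) cells given siRNAs against Mbnl1 and Mbnl2, which encode muscleblind-like splicing regulators. The miR-294 group was Dgcr8 KO cells given a mimic of miR-294, a member of the miR-290 family. The Dgcr8 KO group was mock transfected and makes no canonical microRNAs, because Dgcr8 is needed to cut their primary transcripts, and the WT group was mock transfected wild type. Mimics and siRNAs were used at 50 nM, 16 hours after plating. All samples are labelled V6.5, a hybrid mouse stem cell line, but the Dgcr8 KO columns of the table are headed ES1-mock and the WT columns V65-mock. In Dgcr8 KO minus WT, loss of Dgcr8 and any difference between lines cannot be told apart. None of the 8 libraries is labelled as given a control mimic or control siRNA. When miR-294 or siMbnl1/2 is set against Dgcr8 KO, the effect of its sequence and of adding any small RNA cannot be told apart. Culture was in medium with serum and LIF, either on gelatin or with irradiated feeder fibroblasts, and the labels do not tell which libraries had feeders. The labels do not say whether the 2 libraries of a group came from separate cultures, so a p-value here reflects no more than how these libraries varied, which may be technical.

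Values are FPKM, fragments scaled to transcript length and to the mapped total of the library, so a level is a share of its library and the number of reads behind it is unknown. In bulk RNA, fewer cells expressing a gene and less RNA per cell cannot be told apart. Libraries summed to 510928 to 516085 FPKM in siMbnl1/2, 542209 to 549479 in miR-294, 473746 to 502310 in Dgcr8 KO and 564280 to 571508 in WT. Dgcr8 was lower in Dgcr8 KO than in WT by 1.35 (SE 0.10) on the log2(FPKM + 1) scale (limma, adjusted p = 3.47e-05), with 7.89 and 8.50 FPKM in Dgcr8 KO and 22.9 and 21.9 FPKM in WT. After siRNA, Mbnl2 fell by 1.01 (SE 0.12, limma adjusted p = 0.0191) relative to Dgcr8 KO and Mbnl1 differed by -0.31 (SE 0.10, limma adjusted p = 0.158). All 12 pluripotency markers averaged at least 1 FPKM in every group. They summed to 7890 to 7895 FPKM in siMbnl1/2, 6276 to 6420 in miR-294, 6525 to 7076 in Dgcr8 KO and 5952 to 6012 in WT. Most of that sum was Dppa5a, at averages of 5035, 3121, 3978 and 3117 FPKM in that order, so the sum does not rank the groups by pluripotency. Pou5f1 ran the other way, at 762, 1069, 742 and 1036 FPKM. Of 12 fibroblast markers 2 averaged at least 1 FPKM in every group. The 12 summed to 4.60 to 6.49 FPKM in siMbnl1/2, 5.97 to 6.14 in miR-294, 5.96 to 7.55 in Dgcr8 KO and 6.18 to 6.74 in WT. Postn was at 0 in both libraries of siMbnl1/2, miR-294 and Dgcr8 KO, Lum in both of Dgcr8 KO and of WT, and Dcn in both of WT.

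The sequence that miR-294 was added to supply is shown first, because the transcripts were searched for matches to it. The mature strands of the miR-290 family that share its seed, bases 2 to 8 in capitals, are printed from RefSeq (GRCm38.p6). miR-294-3p lies at chr7:3220691-3220712 on the plus strand, and miR-291a-3p and miR-295-3p lie in the same cluster.
mmu-miR-294-3p: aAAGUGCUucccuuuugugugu
mmu-miR-291a-3p: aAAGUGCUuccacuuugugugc
mmu-miR-295-3p: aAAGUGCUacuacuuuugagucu

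The 3' UTRs of GENCODE M21 were searched for AGCACTT, the match to bases 2 to 8, and for GCACTTA, the match to bases 2 to 7 followed by A, on the transcript strand. A single transcript per gene was searched, the one with the longest coding part. Its 3' UTR had 68 bases for Pfkfb2, 147 for Pfkfb3 and 256 for Pfkfb1, and matches in other transcripts would be missed. Of the 33 genes 7 (21.2%) held such a match, against 18.3% of 11551 tested genes with a 3' UTR, and none held the longer AGCACTTA, which 3.21% of the tested genes held. The 7 genes were Pdk1, Slc16a1, Pdk4, Bpgm, Ldha, Aldoc and Pfkp. Sites in the 4 genes on which the results below turn are shown with the match in capitals (mm10). They lie at chr6:5484938-5484963 on the minus strand (Pdk4), chr7:46855143-46855168 (Ldha), chr3:104657954-104657979 (Slc16a1) and chr6:34504838-34504863 (Bpgm), the last 3 on the plus strand.
Pdk4 3' UTR site: ggatggaaggaatcaaAGCACTTtat
Ldha 3' UTR site: gtcttccccgtgtcctAGCACTTcac
Slc16a1 3' UTR site: tagtgaagcctgtgtgGCACTTAgca
Bpgm 3' UTR site: gagaagactactaggtAGCACTTggg

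Genes with a seed match moved in both directions. Among the 7, 2 fell and 3 rose in miR-294 relative to Dgcr8 KO. Among the 26 with no match in the transcript searched 6 fell and 8 rose. Of all genes tested, 29.2% fell and 22.9% rose in this comparison. Of the 4 sites printed, the Pdk4 one belongs to a gene that fell with the mimic, while Ldha, Slc16a1 and Bpgm rose. A match is a sequence description and does not show binding.

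In the miR-294 libraries, 19 of the 33 genes differed from Dgcr8 KO, 11 of them higher and 8 lower (limma, Benjamini-Hochberg adjusted p under 0.05 over 12786 genes). The background was high, since 52.2% of all genes tested were called in this comparison, 22.9% higher and 29.2% lower. In Dgcr8 KO, 20 of the 33 differed from WT, 9 higher and 11 lower, where 59.8% of all genes were called, 29.6% higher and 30.1% lower. Both shares lie near that background, so the number of changed genes says nothing particular about glycolysis. The median log2 difference of the 33 was -0.01 in miR-294 minus Dgcr8 KO, where it was -0.06 over all genes, and -0.07 in Dgcr8 KO minus WT, where it was 0.00 over all genes. Calls in both directions occurred in both comparisons, as the plot of changes by gene shows. These comparisons share the Dgcr8 KO libraries, so a high or low Dgcr8 KO value moves both in opposite directions, and their values are given side by side without a test of likeness.

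**Figure D1:**
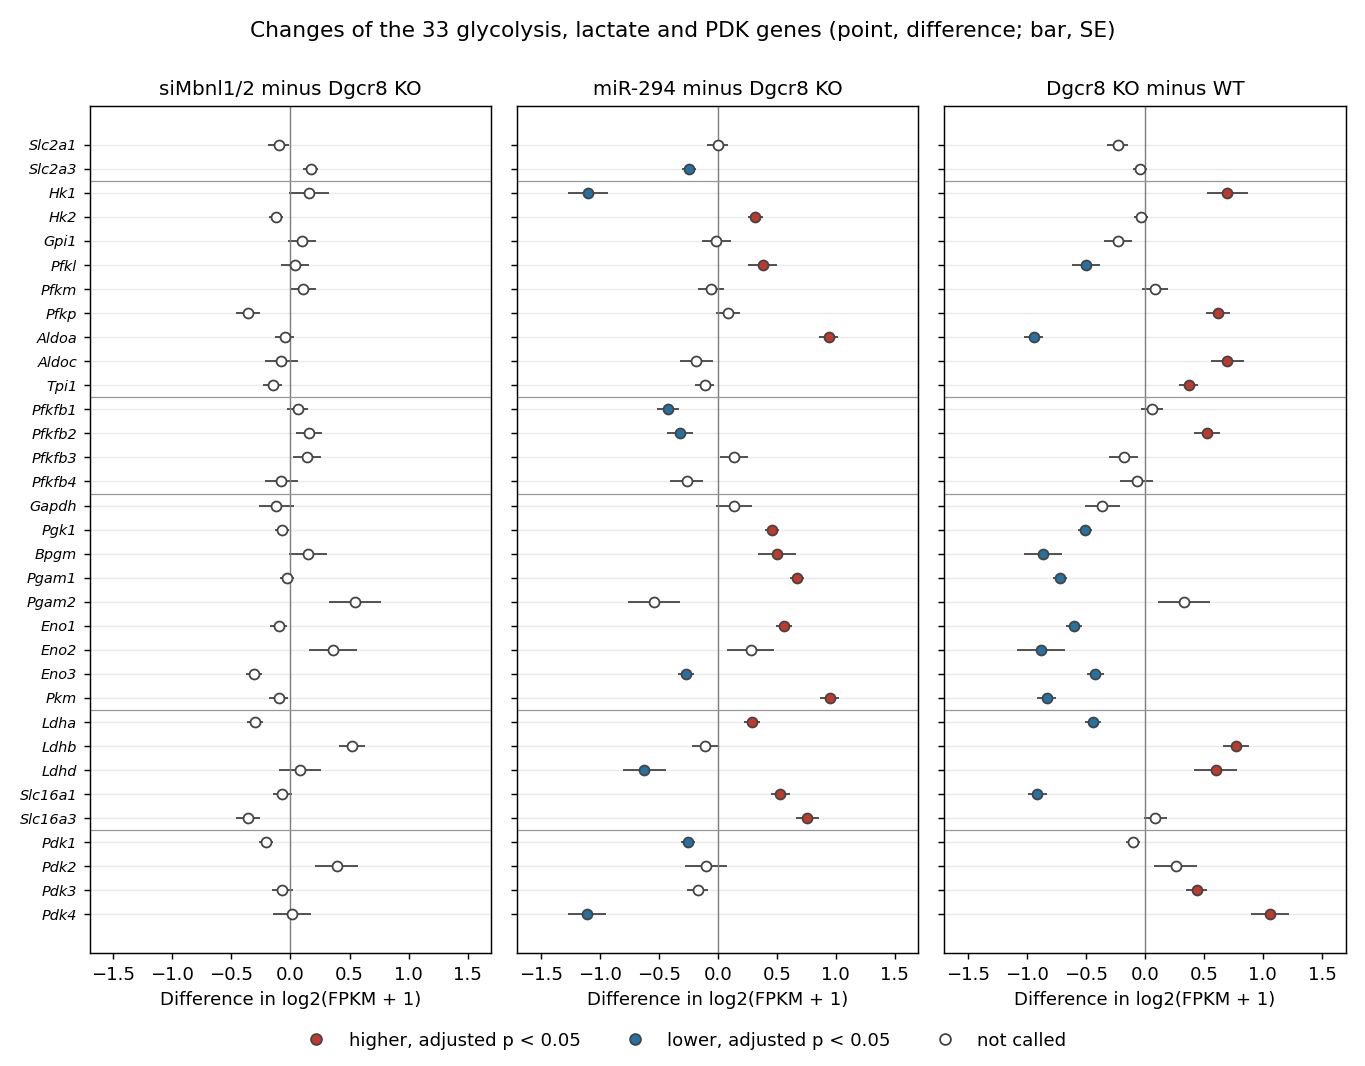
Difference in log2(FPKM + 1) with its SE (horizontal axis) for the 33 genes (rows, grouped by role with grey lines) in siMbnl1/2 minus Dgcr8 KO, miR-294 minus Dgcr8 KO and Dgcr8 KO minus WT. Filled points passed an adjusted p of 0.05, and none did so in the first comparison. In Dgcr8 KO minus WT 7 of the 9 genes of lower glycolysis have filled points to the left of 0. Of all genes tested 30.1% were called lower there.

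Of the 9 genes of lower glycolysis, 7 were lower in Dgcr8 KO than in WT and none was higher, with a median log2 difference of -0.60. Of all genes tested, 30.1% were lower and 29.6% higher. Of those averaging at least 100 FPKM, as Gapdh, Pgk1, Pgam1, Eno1 and Pkm did, 66.2% were lower and 11.4% higher. In miR-294 relative to Dgcr8 KO, 5 of the 9 were higher, 1 was lower and the median was 0.46. There 22.9% of all genes were higher and 29.2% lower, and at 100 FPKM and over 59.3% and 10.8%. Pgk1, Bpgm, Pgam1, Eno1 and Pkm were the 5 that rose with the mimic, Eno3 fell, and Gapdh, Pgam2 and Eno2 were not called.

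Pkm (chr9:59656368-59679375, plus strand, mm10) encodes the pyruvate kinase of most tissues, the last step of glycolysis. It measured 632 and 647 FPKM in siMbnl1/2, 1332 and 1326 FPKM in miR-294, 742 and 633 FPKM in Dgcr8 KO and 1255 and 1186 FPKM in WT. The miR-294 and WT libraries lay far above both other groups, and siMbnl1/2 lay within the range of Dgcr8 KO or just under its lower end. Pkm was 1.93-fold higher in miR-294 than in Dgcr8 KO (log2 difference 0.95, SE 0.08, limma adjusted p = 0.000114) and fell by 0.83 in Dgcr8 KO relative to WT (SE 0.08, limma adjusted p = 9.96e-05). The gene is known for mutually exclusive exons that give a muscle and a proliferative form of the enzyme, and a gene-level FPKM sums both.

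Eno1, the main enolase, and Pgam1, the phosphoglycerate mutase of most tissues, were also higher in miR-294 and WT than in siMbnl1/2 and Dgcr8 KO. Eno1 measured 689 and 731 FPKM in siMbnl1/2, 1105 and 1147 in miR-294, 812 and 714 in Dgcr8 KO and 1158 and 1150 in WT. Pgam1 measured 83.8 and 82.4 FPKM in siMbnl1/2, 136 and 134 in miR-294, 88.7 and 81.2 in Dgcr8 KO and 143 and 138 in WT. For neither gene did the miR-294 or WT libraries overlap those of Dgcr8 KO. The log2 difference of Eno1 was 0.56 (SE 0.07) in miR-294 minus Dgcr8 KO and -0.60 (SE 0.07) in Dgcr8 KO minus WT, and that of Pgam1 was 0.67 (SE 0.06) and -0.72 (SE 0.06). All 4 had limma adjusted p-values between 7.39e-05 and 0.00064. Eno1 and Pgam1 were chosen to be given by library after their values were seen, as were Aldoa and Slc16a1 below.

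Pgk1, the phosphoglycerate kinase that yields the first ATP of the pathway's second stage, averaged 122 ± 2.84 FPKM in siMbnl1/2, 176 ± 0.0573 in miR-294, 128 ± 7.43 in Dgcr8 KO and 182 ± 1.73 in WT (SD, n = 2 each). It was 1.38-fold higher in miR-294 than in Dgcr8 KO (limma adjusted p = 0.000694). In Dgcr8 KO relative to WT it fell by 0.51 on the log2 scale (SE 0.06, limma adjusted p = 0.000301). Of the other 777 genes of at least 100 FPKM, 33.8% had a higher difference than Pgk1 in the first comparison and 36.3% a lower one in the second. Quantile normalization cut its differences to 0.21 and -0.15 (limma adjusted p = 0.0151 and 0.0443). Bpgm, which makes a side product best known from red cells, was far less abundant, at 5.30 FPKM in siMbnl1/2, 7.03 in miR-294, 4.73 in Dgcr8 KO and 9.29 in WT on average. It fell by 0.86 (SE 0.16) in Dgcr8 KO relative to WT and rose by 0.50 (SE 0.16, limma adjusted p = 0.0287) in miR-294 relative to Dgcr8 KO. The call against Dgcr8 KO was lost in 4 of 12 alternatives (limma adjusted p up to 0.145): without the filter on low values, without either miR-294 library and without the second Dgcr8 KO library.

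Gapdh, the glyceraldehyde phosphate dehydrogenase often used as a reference gene, was the most abundant of the 33. It measured 1526 and 1966 FPKM in siMbnl1/2, 2030 and 2118 in miR-294, 2155 and 1637 in Dgcr8 KO and 2497 and 2334 in WT. The 2 libraries of siMbnl1/2 and the 2 of Dgcr8 KO were far apart. The Dgcr8 KO range took in both miR-294 values and overlapped siMbnl1/2, and WT lay above every other library. Gapdh differed by 0.14 (SE 0.15, limma adjusted p = 0.454) in miR-294 minus Dgcr8 KO and by -0.36 (SE 0.15, limma adjusted p = 0.0702) in Dgcr8 KO minus WT. Quantile normalization turned both signs, to -0.22 and 0.04, with neither called, and 3 of 12 alternatives called the second one.

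Among the less abundant isoforms, Pgam2, the muscle phosphoglycerate mutase, measured 3.94 and 6.83 FPKM in siMbnl1/2, 1.80 and 2.07 in miR-294, 3.72 and 2.83 in Dgcr8 KO and 2.15 and 2.62 in WT. It was called in siMbnl1/2 minus miR-294 (log2 difference 1.09, SE 0.22, limma adjusted p = 0.00455) and in siMbnl1/2 minus WT (0.88, SE 0.22, limma adjusted p = 0.00956), the second call being lost without the first WT library (limma adjusted p = 0.0589), and the 2 siMbnl1/2 libraries were far apart. Eno3, the muscle enolase, averaged 16.3 FPKM in siMbnl1/2, 16.7 in miR-294, 20.4 in Dgcr8 KO and 27.6 in WT, so miR-294 stood farther from WT than Dgcr8 KO did. It was lower in miR-294 than in WT by 0.69 (SE 0.07, limma adjusted p = 0.000622). Its difference of -0.27 in miR-294 minus Dgcr8 KO (limma adjusted p = 0.012) was not called under quantile normalization or without either miR-294 library (limma adjusted p up to 0.0795). Eno2, the neuronal enolase, fell by 0.88 (SE 0.20, limma adjusted p = 0.00599) in Dgcr8 KO relative to WT at averages of 1.66 FPKM in Dgcr8 KO and 3.89 FPKM in WT.

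Abundance went with these directions across the whole table. Of the 778 tested genes that averaged at least 100 FPKM, 59.3% were higher and 10.8% lower in miR-294 than in Dgcr8 KO, with a median of 0.31, and 11.4% were higher and 66.2% lower in Dgcr8 KO than in WT, with a median of -0.39. The 11 members at that level gave 6 higher and 1 lower with a median of 0.29, and 1 higher and 6 lower with a median of -0.44. As a group, then, the abundant glycolytic genes moved as abundant genes did, and the part of that general shift in their changes was not tested. Single members lay toward either edge of it. Of the other 777 abundant genes, 3.86% had a larger increase than Pkm in miR-294 minus Dgcr8 KO and 4.12% a larger one than Aldoa, while 23.2% exceeded Eno1 and 52.4% exceeded Ldha. In Dgcr8 KO minus WT, 7.08% had a lower difference than Aldoa, 11.6% than Pkm, 18.1% than Pgam1, 25.9% than Eno1 and 44.9% than Ldha. Tpi1 and Slc2a3 lay on the opposite side. In miR-294 minus Dgcr8 KO, 10.4% had a lower difference than Slc2a3 and 16.1% than Tpi1. In Dgcr8 KO minus WT, 8.11% had a higher difference than Tpi1 and 20.7% than Slc2a3.

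Quantile normalization gives every library the same distribution. Under it the median of the 778 genes of at least 100 FPKM was 0.04 in miR-294 minus Dgcr8 KO and -0.06 in Dgcr8 KO minus WT. Pkm then differed by 0.58 in miR-294 minus Dgcr8 KO (limma adjusted p = 0.000281) and by -0.39 in Dgcr8 KO minus WT (limma adjusted p = 0.000957). Pgam1 gave 0.45 and -0.42 and Eno1 0.17 and -0.19, all 4 still called by limma.

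**Figure D2:**
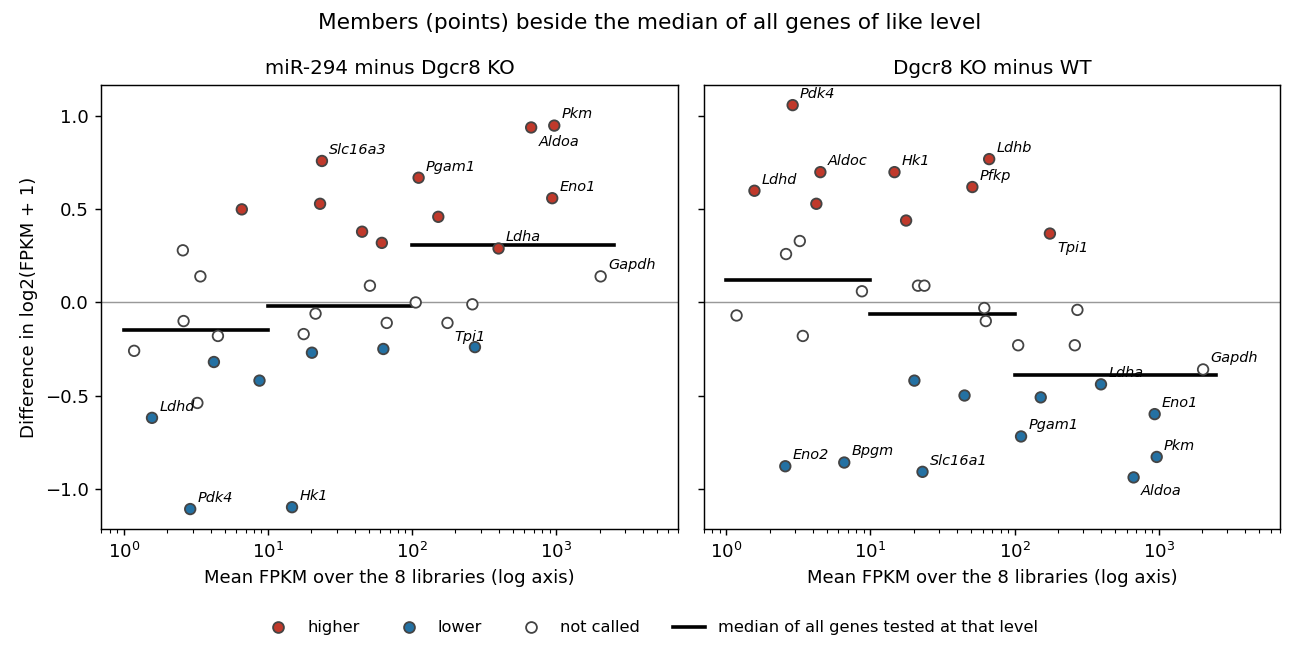
Difference in log2(FPKM + 1) of the 33 genes (points) against their mean FPKM over the 8 libraries (log axis), for miR-294 minus Dgcr8 KO and Dgcr8 KO minus WT, with the median of all genes tested in 3 bands of level (black lines). At 100 FPKM and over that median is 0.31 in the left panel and -0.39 in the right one. Pkm and Aldoa lie farthest beyond it among the abundant members, Ldha and Gapdh near it, and Tpi1 and Slc2a3 on its other side.

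In upper glycolysis the isozymes of a step moved apart. Of its 9 genes, 3 were higher and 1 lower in miR-294 than in Dgcr8 KO, and 4 were higher and 2 lower in Dgcr8 KO than in WT. Over all genes tested the shares were 22.9% higher and 29.2% lower in the first comparison and 29.6% and 30.1% in the second. Hk1, the hexokinase of most adult tissues (chr10:62268855-62379908, minus strand), measured 16.8 and 25.6 FPKM in siMbnl1/2, 8.16 and 7.92 in miR-294, 19.7 and 17.2 in Dgcr8 KO and 10.8 and 11.1 in WT. The miR-294 libraries were the lowest of all, under WT too, and siMbnl1/2 spanned the Dgcr8 KO values. Hk1 fell by 1.10 (SE 0.17, limma adjusted p = 0.00145) in miR-294 relative to Dgcr8 KO and was 1.69-fold higher in Dgcr8 KO than in WT (log2 difference 0.70, SE 0.17, limma adjusted p = 0.00915). Without the first Dgcr8 KO library the second call was lost (limma adjusted p = 0.0579).

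Hk2, the inducible hexokinase of proliferating cells and muscle, was the more abundant form. It measured 53.1 and 54.8 FPKM in siMbnl1/2, 73.6 and 74.2 in miR-294, 61.0 and 56.7 in Dgcr8 KO and 60.9 and 59.3 in WT. Only the miR-294 libraries stood above the rest. Hk2 rose by 0.32 (SE 0.06, limma adjusted p = 0.0042) in miR-294 relative to Dgcr8 KO and was above WT by 0.29 (SE 0.06, limma adjusted p = 0.0141), a call lost without any 1 of the 4 libraries (limma adjusted p up to 0.113). Dgcr8 KO minus WT gave -0.03 (SE 0.06, limma adjusted p = 0.708). Of the summed FPKM of the 2 genes, Hk1 supplied 24.0% and 31.8% in siMbnl1/2, 9.98% and 9.65% in miR-294, 24.4% and 23.3% in Dgcr8 KO and 15.0% and 15.8% in WT.

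Aldoa, the aldolase of muscle and most other tissues (chr7:126795234-126809108, minus strand), showed the largest changes of the abundant genes of upper glycolysis. It measured 423 and 471 FPKM in siMbnl1/2, 886 and 891 in miR-294, 495 and 430 in Dgcr8 KO and 906 and 862 in WT. The 4 libraries of miR-294 and WT lay together and the 4 of siMbnl1/2 and Dgcr8 KO lay together at a lower level. Aldoa was 1.92-fold higher in miR-294 than in Dgcr8 KO (log2 difference 0.94, SE 0.08, limma adjusted p = 0.000142) and fell by 0.94 in Dgcr8 KO relative to WT (SE 0.08, limma adjusted p = 7.62e-05). Both calls held under quantile normalization, at 0.60 and -0.58. Aldoc, the brain aldolase, ran the other way in Dgcr8 KO minus WT, averaging 5.06 FPKM in siMbnl1/2, 4.63 in miR-294, 5.40 in Dgcr8 KO and 2.93 in WT. It rose by 0.70 (SE 0.14, limma adjusted p = 0.00326) relative to WT, yet supplied at most 1.19% of aldolase FPKM in any library.

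The 3 phosphofructokinases, which catalyse the committed step, also differed from each other. Pfkl, the liver form, averaged 39.0 FPKM in siMbnl1/2, 49.2 in miR-294, 38.0 in Dgcr8 KO and 53.9 in WT. It fell by 0.50 (SE 0.12, limma adjusted p = 0.00879) in Dgcr8 KO relative to WT, a call lost without the first WT library (limma adjusted p = 0.0672). It rose by 0.38 (SE 0.12, limma adjusted p = 0.0328) with miR-294, a call lost in 4 of 12 alternatives. Pfkp, the platelet form, averaged 45.4 FPKM in siMbnl1/2, 62.4 in miR-294, 58.5 in Dgcr8 KO and 37.8 in WT. It was 1.55-fold higher in Dgcr8 KO than in WT (limma adjusted p = 0.00115) and differed by 0.09 (SE 0.10, limma adjusted p = 0.455) in miR-294 minus Dgcr8 KO. Its share of the 3 forms was 41.6% and 42.6% in siMbnl1/2, 47.4% and 47.0% in miR-294, 48.3% and 51.0% in Dgcr8 KO and 33.5% and 34.2% in WT. Pfkm, the muscle form, was called in no comparison, at group averages of 20.1 to 23.4 FPKM.

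Tpi1, triose phosphate isomerase, was the single member of at least 100 FPKM called higher in Dgcr8 KO than in WT, with 176 FPKM in siMbnl1/2, 180 in miR-294, 196 in Dgcr8 KO and 151 in WT on average. It rose by 0.37 (SE 0.08, limma adjusted p = 0.00502) in Dgcr8 KO relative to WT. Gpi1, glucose phosphate isomerase, averaged between 245 and 289 FPKM and was not called in any comparison.

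Of the 2 glucose transporters neither was called in Dgcr8 KO minus WT. Slc2a1, the widely expressed GLUT family member known as a hypoxia and Myc target, measured 105 and 88.6 FPKM in siMbnl1/2, 103 and 104 in miR-294, 107 and 100 in Dgcr8 KO and 128 and 115 in WT. WT lay above every other library, but the difference of -0.23 (SE 0.09) in Dgcr8 KO minus WT had a limma adjusted p of 0.0714, and miR-294 minus Dgcr8 KO was 0.00 (SE 0.09). It was lower in siMbnl1/2 than in WT by 0.33 (SE 0.09, limma adjusted p = 0.018), a call lost in 4 of 12 alternatives. Slc2a3, a high-affinity transporter of neurons and early embryos, was more abundant, at 308 FPKM in siMbnl1/2, 231 in miR-294, 274 in Dgcr8 KO and 281 in WT on average. It fell by 0.24 (SE 0.06, limma adjusted p = 0.0118) in miR-294 relative to Dgcr8 KO, a call lost without either miR-294 library. It was 1.33-fold higher in siMbnl1/2 than in miR-294 (log2 difference 0.41, SE 0.06, limma adjusted p = 0.00102).

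The PFKFB enzymes make and break the sugar bisphosphate that activates phosphofructokinase, and they were rare transcripts here. Pfkfb1 averaged 9.81 FPKM in siMbnl1/2, 6.76 in miR-294, 9.40 in Dgcr8 KO and 9.01 in WT, and fell by 0.42 (SE 0.09, limma adjusted p = 0.00547) in miR-294 relative to Dgcr8 KO, a call lost without the second miR-294 library (limma adjusted p = 0.0507). Pfkfb2 averaged 5.47 FPKM in siMbnl1/2, 3.63 in miR-294 and 4.77 in Dgcr8 KO. It was 1.59-fold higher in Dgcr8 KO than in WT (log2 difference 0.53, SE 0.11, limma adjusted p = 0.0042), and its difference of -0.32 with miR-294 (limma adjusted p = 0.0427) was lost in 8 of 12 alternatives. Pfkfb3, known for strong kinase activity in proliferating cells, and Pfkfb4 were called in no comparison.

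**Figure D3:**
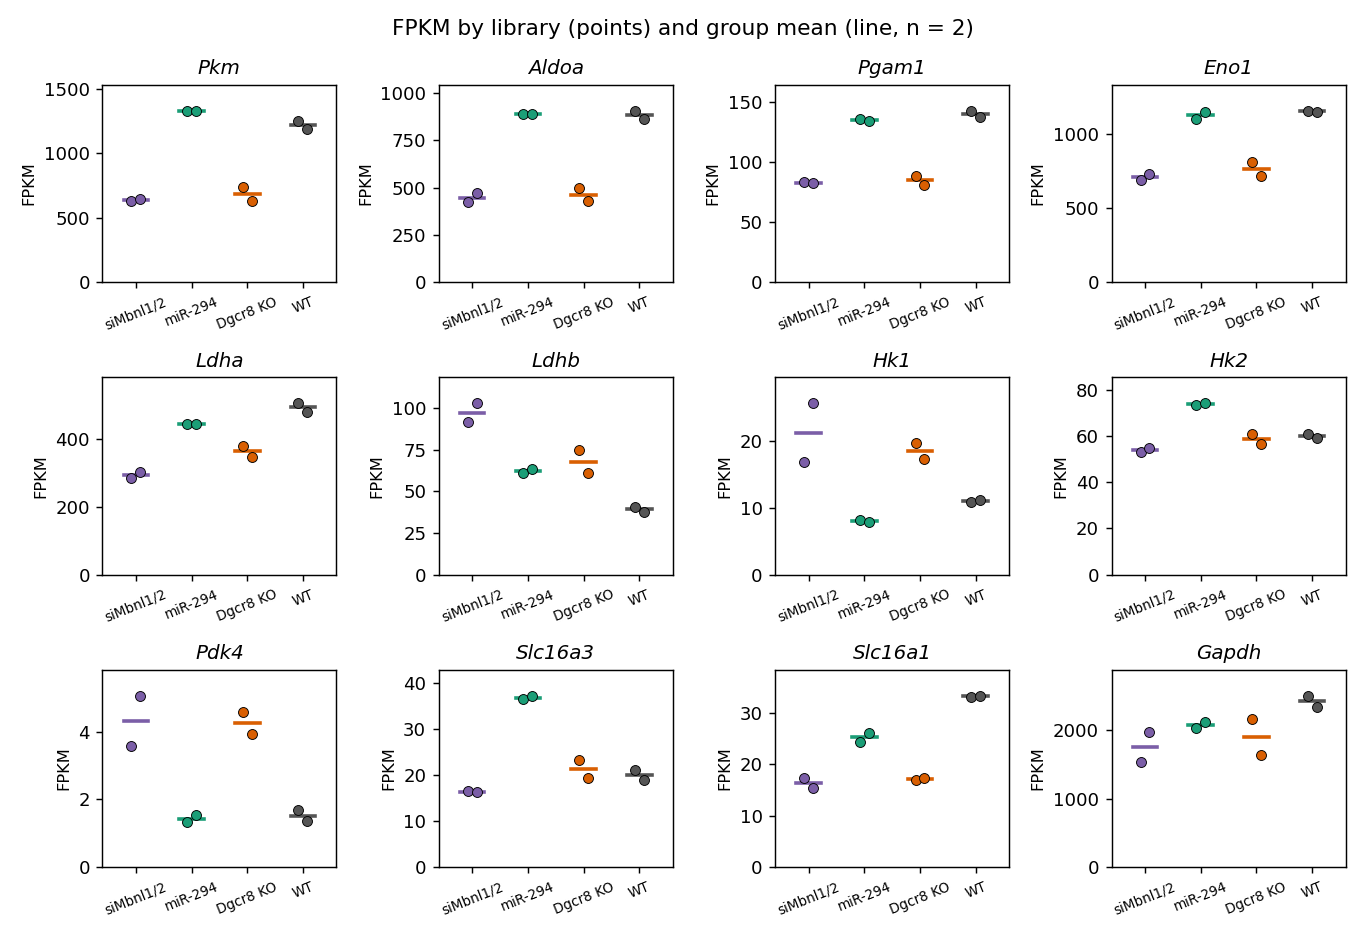
FPKM of 12 of the genes (vertical axes, from 0) in each library (points) with the group mean (line, n = 2), for siMbnl1/2, miR-294, Dgcr8 KO and WT from left to right. Pkm, Aldoa, Pgam1 and Eno1 are high in miR-294 and WT; Hk1 and Pdk4 are lower there than in siMbnl1/2 and Dgcr8 KO; Slc16a3 is highest in miR-294 at 36.5 and 37.3 FPKM.

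Lactate dehydrogenase is a tetramer of A and B subunits, and the A form is the one linked with lactate production. Ldha (chr7:46841475-46855627, plus strand) measured 285 and 303 FPKM in siMbnl1/2, 444 and 442 in miR-294, 379 and 345 in Dgcr8 KO and 504 and 479 in WT. The 4 groups did not overlap, with WT highest and siMbnl1/2 lowest. Ldha rose by 0.29 (SE 0.07, limma adjusted p = 0.00884) in miR-294 relative to Dgcr8 KO and fell by 0.44 (SE 0.07, limma adjusted p = 0.000968) in Dgcr8 KO relative to WT. Under quantile normalization the first was 0.07 and no longer called (limma adjusted p = 0.391), and the second was -0.20 (limma adjusted p = 0.0262). The first was also lost without either miR-294 library.

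Ldhb (chr6:142490249-142507957, minus strand) measured 91.7 and 103 FPKM in siMbnl1/2, 61.2 and 63.3 in miR-294, 74.7 and 60.9 in Dgcr8 KO and 40.9 and 37.7 in WT. WT was lowest, siMbnl1/2 highest, and miR-294 lay inside the range of Dgcr8 KO. Ldhb rose by 0.77 (SE 0.11, limma adjusted p = 0.000625) in Dgcr8 KO relative to WT and remained above WT in miR-294, by 0.65 (SE 0.11, limma adjusted p = 0.00487). In siMbnl1/2 it was 2.48-fold higher than in WT (log2 difference 1.29, SE 0.11, limma adjusted p = 5.27e-05). The B form's share of the summed Ldha and Ldhb FPKM was 24.3% and 25.4% in siMbnl1/2, 12.1% and 12.5% in miR-294, 16.5% and 15.0% in Dgcr8 KO and 7.51% and 7.29% in WT. These shares did not overlap between any 2 groups and are a description without a test. Ldhd, which acts on the D isomer of lactate in mitochondria, was rare, at 2.23 FPKM in siMbnl1/2, 0.970 in miR-294, 2.06 in Dgcr8 KO and 0.997 in WT on average. It was called lower in miR-294 than in Dgcr8 KO and higher in Dgcr8 KO than in WT, and each call was lost in 3 of 12 alternatives.

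**Figure D4:**
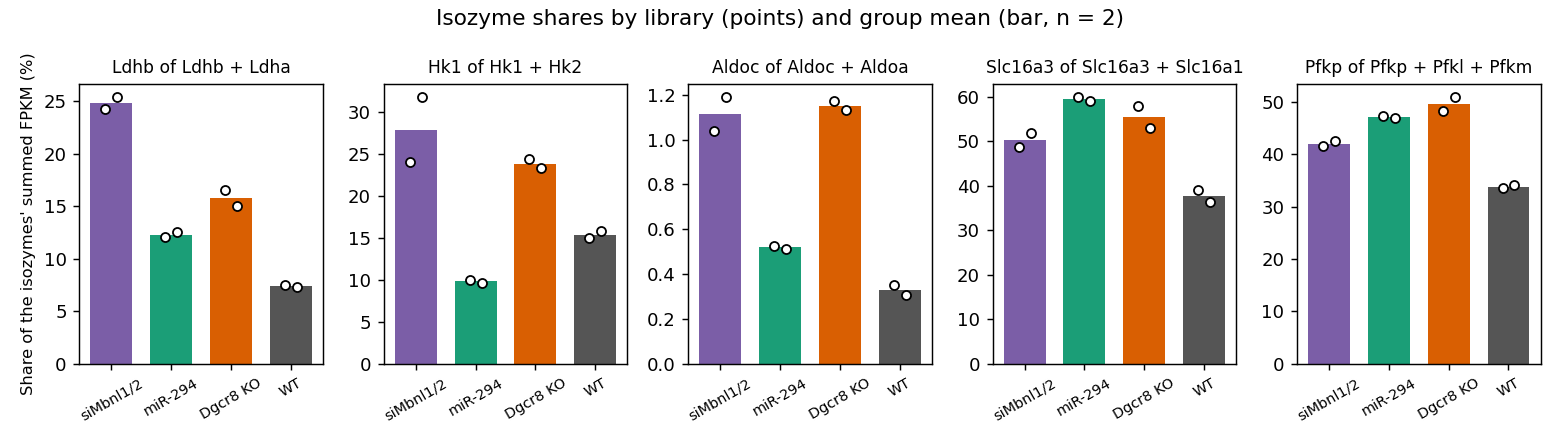
Share of an isozyme in the summed FPKM of its family (vertical axes, percent, from 0) in each library (points) with the group mean (bars, n = 2), for siMbnl1/2, miR-294, Dgcr8 KO and WT from left to right. The Ldhb share ranges from 7.29% in a WT library to 25.4% in a siMbnl1/2 library, and the Hk1 share is lowest in miR-294.

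The monocarboxylate transporters carry lactate and pyruvate across the plasma membrane. Slc16a1 (chr3:104638668-104658462, plus strand), the widely expressed form, measured 17.4 and 15.3 FPKM in siMbnl1/2, 24.4 and 26.0 in miR-294, 16.9 and 17.4 in Dgcr8 KO and a mean of 33.1 ± 0.184 (SD, n = 2) in WT. The miR-294 libraries lay between Dgcr8 KO and WT without overlap. It fell by 0.91 (SE 0.08, limma adjusted p = 7.56e-05) in Dgcr8 KO relative to WT and rose by 0.53 (SE 0.08, limma adjusted p = 0.00143) in miR-294 relative to Dgcr8 KO. Among the other 5955 tested genes of 10 to 100 FPKM, 5.54% had a lower difference than Slc16a1 in Dgcr8 KO minus WT, and the median of that band was -0.06. In miR-294 minus Dgcr8 KO 12.8% had a higher difference than Slc16a1, and the median of the band was -0.02. Quantile normalization left Slc16a1 at -0.88 in Dgcr8 KO minus WT and at 0.60 in miR-294 minus Dgcr8 KO.

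Slc16a3 (chr11:120948480-120960868, plus strand), the lactate exporter of glycolytic muscle and tumour cells, measured 16.5 and 16.4 FPKM in siMbnl1/2, 36.5 and 37.3 in miR-294, 23.3 and 19.5 in Dgcr8 KO and 21.2 and 18.9 in WT. Only miR-294 stood apart upward, and siMbnl1/2 lay under every other library. It rose by 0.76 (SE 0.10, limma adjusted p = 0.000618) in miR-294 relative to Dgcr8 KO and was 1.84-fold higher in miR-294 than in WT (log2 difference 0.85, SE 0.10, limma adjusted p = 0.00112), while Dgcr8 KO minus WT gave 0.09 (SE 0.10, limma adjusted p = 0.449). For Pkm, Aldoa, Pgam1, Eno1 and Pgk1 the miR-294 minus WT differences ran from -0.05 to 0.12 and were not called, although both miR-294 values of Pkm lay above both WT values and its difference of 0.12 was called when no other libraries entered the fit (limma adjusted p = 0.0257).

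Of the 4 pyruvate dehydrogenase kinases, 2 (Pdk3 and Pdk4) were higher and none lower in Dgcr8 KO than in WT. In miR-294 relative to Dgcr8 KO, 2 (Pdk1 and Pdk4) were lower and none higher, so only Pdk4 was called in both. Of all genes tested 29.6% were higher in the first comparison and 29.2% lower in the second, so these counts say nothing particular about the kinases. Pdk4 (chr6:5483351-5496309, minus strand), the form known for induction by fasting and fatty acids, measured 3.59 and 5.06 FPKM in siMbnl1/2, 1.34 and 1.53 in miR-294, 4.58 and 3.93 in Dgcr8 KO and 1.69 and 1.35 in WT. The miR-294 and WT values overlapped each other and lay well under both other groups. Pdk4 fell by 1.11 (SE 0.16, limma adjusted p = 0.000967) in miR-294 relative to Dgcr8 KO and was 2.80-fold higher in Dgcr8 KO than in WT (log2 difference 1.06, SE 0.16, limma adjusted p = 0.00083). Its 3' UTR holds a seed match, as do those of Ldha, Slc16a1 and Bpgm, which rose in miR-294 relative to Dgcr8 KO. Of the 7 genes with a match, 2 fell and 3 rose there. Among the other 6051 genes of 1 to 10 FPKM, 5.59% had a lower difference than Pdk4 in miR-294 minus Dgcr8 KO. In Dgcr8 KO minus WT 10.2% had a higher one.

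Pdk1, the hypoxia-inducible form, was the most abundant, at 57.7 FPKM in siMbnl1/2, 56.3 in miR-294, 66.9 in Dgcr8 KO and 71.9 in WT on average, and supplied 68.1% to 80.1% of the PDK FPKM in a group. It fell by 0.25 (SE 0.06, limma adjusted p = 0.0152) in miR-294 relative to Dgcr8 KO, a call lost without the first miR-294 library (limma adjusted p = 0.132). Pdk3 rose by 0.44 (SE 0.09, limma adjusted p = 0.0032) in Dgcr8 KO relative to WT, averaging 19.9 FPKM in Dgcr8 KO and 14.4 FPKM in WT. Pdk2, at 1.93 to 3.66 FPKM by group, was called higher in siMbnl1/2 than in WT and, in the main analysis, than in miR-294 (limma adjusted p = 0.0477), a call lost in 10 of 12 alternatives, the replicate block among them.

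In the siMbnl1/2 libraries none of the 33 genes differed from Dgcr8 KO by limma (adjusted p under 0.05), where 1.11% of all genes tested were called, 0.868% higher and 0.242% lower. At an unadjusted p under 0.05 there were 8, where 18.4% of all genes tested lay under that value, with a smallest adjusted p of 0.065. They were Ldhb (log2 difference 0.52, SE 0.11), Eno3 (-0.31), Ldha (-0.30), Pfkp (-0.36), Slc16a3 (-0.36), Pdk1 (-0.21), Slc2a3 (0.17) and Pgam2 (0.55). Scaling by the median of ratios called Ldha lower (-0.35, limma adjusted p = 0.0302), and leaving out the second siMbnl1/2 library called Pfkp lower (-0.48, limma adjusted p = 0.0386). For Pkm the difference was -0.10 (SE 0.08), for Aldoa -0.05 (SE 0.08) and for Hk1 0.16 (SE 0.17). A p that misses the threshold does not show that the values were equal.

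Set directly against miR-294, siMbnl1/2 differed at 19 of the 33 genes, 9 higher and 10 lower, where 54.0% of all genes tested were called. Median-of-ratios scaling gave 8 higher and 13 lower, and over all genes it turned 4217 higher and 2685 lower into 3477 and 3461. Hk1 was 2.63-fold higher (log2 difference 1.27, SE 0.17, limma adjusted p = 0.000727) and Pdk4 3.01-fold higher (1.12, SE 0.16, limma adjusted p = 0.000874). Slc16a3 fell by 1.12 (SE 0.10, limma adjusted p = 0.000113), Pkm by 1.05 (SE 0.08, limma adjusted p = 6.65e-05) and Aldoa by 0.99 (SE 0.08, limma adjusted p = 0.000101). In siMbnl1/2 minus WT, 24 of the 33 were called, 10 higher and 14 lower, with 60.5% of all genes called, 32.8% higher and 27.7% lower.

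The miR-294 libraries differed from WT at 10 of the 33 genes, 5 higher and 5 lower, where 26.5% of all genes tested were called, 11.8% higher and 14.7% lower. Higher were Slc16a3, Pfkp (log2 difference 0.71, SE 0.10), Ldhb (0.65), Aldoc (0.52) and Hk2 (0.29). Lower were Eno3 (-0.69), Slc16a1 (-0.38), Pfkfb1 (-0.37), Pdk1 (-0.35) and Slc2a3 (-0.28). The replicates of the groups were not equally close. The median SD of log2(FPKM + 1) between them was 0.0487 in miR-294, 0.0462 in WT, 0.102 in Dgcr8 KO and 0.121 in siMbnl1/2. The main fit used a variance shared by all groups. The count of 10 depended on the fit. It was 20 when each group had its own weight, 21 when only these 4 libraries were fitted, and 4 or 5 without any 1 of them. Summed over the 33 genes, FPKM was 5003 and 5677 in siMbnl1/2, 7313 and 7477 in miR-294, 6150 and 5160 in Dgcr8 KO and 7949 and 7568 in WT, or 0.979% to 1.39% of a library.

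Regulators and neighbouring pathways were read from lists of related genes. The background for every count of calls below is the share of all genes tested. It was 22.9% higher and 29.2% lower in miR-294 minus Dgcr8 KO, and 29.6% and 30.1% in Dgcr8 KO minus WT. In siMbnl1/2 minus Dgcr8 KO it was 0.868% and 0.242%. Myc measured 2.61 and 1.37 FPKM in siMbnl1/2, 26.7 and 28.1 in miR-294, 1.99 and 2.53 in Dgcr8 KO and 32.8 and 33.3 in WT. It was 12.1-fold higher in miR-294 than in Dgcr8 KO (log2 difference 3.12, SE 0.19, limma adjusted p = 4.57e-05) and lower in Dgcr8 KO than in WT by 3.39 (SE 0.19, limma adjusted p = 1.05e-05). Mycn, a close relative, differed in another way, with 62.7 and 70.5 FPKM in siMbnl1/2, 99.1 and 99.3 in miR-294, 68.9 and 66.6 in Dgcr8 KO and 44.7 and 45.3 in WT. Mbd2, a reader of methylated DNA, measured 23.8 and 27.4 FPKM in siMbnl1/2, 10.3 and 13.0 in miR-294, 27.4 and 28.9 in Dgcr8 KO and 11.7 and 12.9 in WT. It fell by 1.21 (SE 0.12, limma adjusted p = 0.000216) in miR-294 relative to Dgcr8 KO and was 2.28-fold higher in Dgcr8 KO than in WT (limma adjusted p = 0.000164). Of 12 genes of the Myc network and Mbd2, 5 were higher and 4 lower in miR-294 than in Dgcr8 KO, 8 higher and 4 lower in Dgcr8 KO than in WT, and none was called in siMbnl1/2 minus Dgcr8 KO. Mycl rose by 1.22 (SE 0.13, limma adjusted p = 0.000262) with miR-294. No relation between Myc, Mbd2 and the 33 genes was tested.

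Hif1a, the oxygen-regulated subunit of the hypoxia-inducible factor, differed by -0.02 (SE 0.09) in miR-294 minus Dgcr8 KO and fell by 0.25 (SE 0.09, limma adjusted p = 0.0421) in Dgcr8 KO relative to WT. The list of 18 tested hypoxia-related genes holds subunits of the factor and its negative regulators beside response genes. Its counts therefore give no direction of a hypoxia response. Of the 18, 2 were higher and 5 lower in miR-294 than in Dgcr8 KO, and 8 higher and 3 lower in Dgcr8 KO than in WT. In siMbnl1/2 relative to Dgcr8 KO, 1 was higher and 1 lower. P4ha1, a collagen prolyl hydroxylase, fell by 1.01 (SE 0.09) with miR-294 and Egln1, an oxygen sensor, by 0.68 (SE 0.09). P4ha2 fell by 1.67 (SE 0.11) and Egln3 rose by 1.42 (SE 0.09) in Dgcr8 KO relative to WT.

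Past pyruvate, both subunits of the mitochondrial pyruvate carrier fell with miR-294, Mpc1 by 0.93 (SE 0.11, limma adjusted p = 0.000351) and Mpc2 by 0.88 (SE 0.12, limma adjusted p = 0.000768). Mpc1 measured 45.7 and 52.0 FPKM in siMbnl1/2, 21.6 and 25.2 in miR-294, 48.5 and 42.6 in Dgcr8 KO and 26.6 and 27.1 in WT, so miR-294 and WT lay under both other groups. Of 10 genes of the carrier and the pyruvate dehydrogenase complex with its phosphatases, 1 was higher and 3 lower in miR-294 than in Dgcr8 KO, and 3 were higher and 2 lower in Dgcr8 KO than in WT, with Pdp2, a phosphatase that reactivates the complex, at -0.77 (SE 0.10) and Mpc1 at 0.74 (SE 0.11). In the citrate cycle 3 of 20 were higher and 6 lower in miR-294 than in Dgcr8 KO, and 3 were higher and 7 lower in Dgcr8 KO than in WT. Idh2, the mitochondrial NADP-dependent isocitrate dehydrogenase, fell by 1.26 (SE 0.14) and Sdhd, a membrane anchor of succinate dehydrogenase, rose by 0.69 (SE 0.08) with miR-294, and they differed by 1.39 (SE 0.14) and -1.02 (SE 0.08) in Dgcr8 KO minus WT.

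Of 8 pentose phosphate genes, 2 were higher and 3 lower in miR-294 than in Dgcr8 KO and 3 higher and 3 lower in Dgcr8 KO than in WT. Rpia, ribose phosphate isomerase, fell by 1.39 (SE 0.11) with miR-294 and was 3.17-fold higher in Dgcr8 KO than in WT, and H6pd fell by 0.76 (SE 0.17) with miR-294 and was 2.57-fold higher in Dgcr8 KO. Of 13 tested genes of gluconeogenesis and glycogen, 3 were higher and 7 lower in miR-294 than in Dgcr8 KO, and 4 higher and 2 lower in Dgcr8 KO than in WT. Fbp2, the muscle fructose bisphosphatase, rose by 1.02 (SE 0.15) and Pgm2 fell by 0.99 (SE 0.11) with miR-294, while Fbp2 fell by 2.66 (SE 0.15) and Pygb, the brain glycogen phosphorylase, rose by 1.55 (SE 0.16) in Dgcr8 KO relative to WT. None of these genes past pyruvate or beside glycolysis was called in siMbnl1/2 minus Dgcr8 KO.

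Of 10 tested isozymes and regulators of glycolysis outside the 33, 2 were higher and 2 lower in miR-294 than in Dgcr8 KO, and 2 higher and 3 lower in Dgcr8 KO than in WT. Slc2a4 fell by 0.69 (SE 0.19) with miR-294 and Khk, ketohexokinase, fell by 0.40 (SE 0.14) in Dgcr8 KO relative to WT. Eno1b, a near copy of Eno1, averaged 45.7 FPKM in siMbnl1/2, 74.3 in miR-294, 46.6 in Dgcr8 KO and 68.9 in WT and so moved with Eno1. Reads may be shared between them, which makes the level of each uncertain. Pgam1-ps2, a copy of Pgam1, averaged at most 4.76 FPKM in a group. Pluripotency markers moved as well, with 5 of 12 higher and 4 lower in miR-294 than in Dgcr8 KO and 5 higher and 4 lower in Dgcr8 KO than in WT. Nanog fell by 0.79 (SE 0.05) and Utf1 rose by 0.76 (SE 0.15) with miR-294, while Klf2 rose by 1.88 (SE 0.07) and Sox2 by 1.03 (SE 0.07) in Dgcr8 KO relative to WT. Their part in the changes of the 33 genes was not tested.

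Promoter sequence was compared because Myc binds the E-box CACGTG and hypoxia-inducible factors bind sites with the core ACGTG, which the E-box contains. RefSeq promoters (GRCm38.p6, 250 bases before to 50 after a start) were available for 32 of the 33 genes. ACGTG, on either strand, was present in a promoter of 18 of the 32 (56.2%), against 29.8% of 9251 tested genes and 35.7% of 610 tested genes of at least 100 FPKM. CACGTG was present in 7 of the 32 (21.9%), against 12.1% of the tested genes and 14.6% of the abundant ones. Over all genes with a promoter entry the shares were 21.8% and 8.09%. A gene counted if any of its entries held the motif, and the 32 genes had 51 entries, against 32851 for 27025 genes in all. Counted by entry, 43.1% of the 51 held ACGTG and 13.7% CACGTG, against 19.6% and 7.15% of all entries. The part of the number of entries in the shares by gene was not tested. Of the 18 genes with ACGTG, 8 were higher and 3 lower in miR-294 than in Dgcr8 KO, and of the 14 without it 3 were higher and 4 lower. Over all genes tested the shares were 22.9% higher and 29.2% lower. They were 59.3% and 10.8% at 100 FPKM and over, and 14.1% and 32.5% at 1 to 10 FPKM. The genes with and without the motif were not matched for level. In Dgcr8 KO minus WT, the 18 gave 5 higher and 6 lower and the 14 gave 4 higher and 5 lower. Of all genes tested 29.6% were higher and 30.1% lower there. Among the 7 genes with CACGTG, Ldha and Slc16a1 were lower in Dgcr8 KO than in WT and Ldhd and Pfkfb2 were higher. Pdk2, Pfkfb3 and Pfkm were not called. These counts are a description of the sequences and were not tested. Genes with matches at several separate places in a single promoter did not share a direction in Dgcr8 KO minus WT. Hk1 was higher, Hk2, Slc16a3 and Pfkm were not called, and Ldha, Slc16a1, Pgk1 and Pkm were lower. Ldha has 2 annotated starts, and only the first has a match. The promoters of Ldha (first start), Slc16a1 and Pgk1, chosen from the genes that were lower, are printed with the motif on either strand in capitals. They lie at chr7:46845554-46845853, chr3:104638414-104638713 and chrX:106186850-106187149, all on the plus strand.
Ldha promoter: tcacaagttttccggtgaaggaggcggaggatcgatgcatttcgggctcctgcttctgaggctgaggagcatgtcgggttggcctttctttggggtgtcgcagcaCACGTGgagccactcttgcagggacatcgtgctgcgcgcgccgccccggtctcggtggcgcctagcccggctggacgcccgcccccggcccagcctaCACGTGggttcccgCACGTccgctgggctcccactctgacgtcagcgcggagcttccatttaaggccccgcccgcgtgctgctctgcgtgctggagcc
Slc16a1 promoter: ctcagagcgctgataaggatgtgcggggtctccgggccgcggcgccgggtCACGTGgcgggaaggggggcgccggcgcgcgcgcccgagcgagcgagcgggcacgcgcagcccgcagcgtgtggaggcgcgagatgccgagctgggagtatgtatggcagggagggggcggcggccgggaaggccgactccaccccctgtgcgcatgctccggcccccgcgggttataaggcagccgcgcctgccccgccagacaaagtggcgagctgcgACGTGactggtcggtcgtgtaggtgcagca
Pgk1 promoter: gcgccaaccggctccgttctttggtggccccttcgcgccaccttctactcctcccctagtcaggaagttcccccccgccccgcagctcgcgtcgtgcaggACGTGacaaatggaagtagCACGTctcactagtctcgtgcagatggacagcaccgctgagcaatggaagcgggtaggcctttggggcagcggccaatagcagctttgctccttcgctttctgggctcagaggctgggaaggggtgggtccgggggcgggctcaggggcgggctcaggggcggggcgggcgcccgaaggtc
The Ldha promoter holds CACGTG at 2 places and a single further CACGT, the Slc16a1 promoter holds CACGTG and ACGTG once each, and the Pgk1 promoter holds the core once on each strand without an E-box.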

How the data were processed

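The authors deposited 1 table of FPKM per gene and library, 49641 entries by 8 libraries. Per the submitters' processing notes STAR 2.5.0, Cufflinks 2.2.1 and mm10 were used; the annotation release is not given in the sources used here, and 30 of the 33 genes have the coordinates of GENCODE M21. Libraries kept strand by a dUTP protocol, per the labels' protocols, which call the RNA polyA while the design text calls it total. Here limma 3.58.1, run in R 4.3.3 with statmod 1.5.0, estimated a mean of log2(FPKM + 1) for each of the 4 groups, with variance trend and robust settings, over 12786 genes with a mean of at least 1 FPKM; all 33 passed. A change of a low gene is understated on this scale. Calls used a two-sided Benjamini-Hochberg adjusted p under 0.05 over all genes. The fit was also run on simulated data with 200 changed genes and a spread shared by all groups. In the real data far more genes were called in most comparisons and the groups differed in spread, so that run checks only the code. Per-library values were given for genes called with a log2 change of at least 1, plus Ldha, Pkm, Gapdh, Hk2 and Slc2a1; of each other list the 2 called genes with the largest change were named. The members and lists were chosen with earlier results of these data known. Alternatives were a pseudocount of 0.1, no filter, median-of-ratios scaling, quantile normalization, no trend, group weights, only the compared libraries, the replicate number as a block, and each library left out.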

Additional observations from a re-analysis of the deposited data

How the results depend on the processing

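Depth is unknown, 2 libraries per group leave little to judge their spread by, and FPKM cannot tell an absolute change from a change in the rest of the library. Replicates spread more in Dgcr8 KO and siMbnl1/2 than in miR-294 and WT. With a variance shared by all groups, an SE may be too small for the former and too large for the latter. In miR-294 minus Dgcr8 KO the 19 calls became 11 to 17 when a library was left out (11 without either miR-294 library), in Dgcr8 KO minus WT the 20 became 18 to 20, in siMbnl1/2 minus miR-294 the 19 became 17 to 20, and in siMbnl1/2 minus WT the 24 became 17 to 22. In siMbnl1/2 minus Dgcr8 KO the 0 became 0 to 1, and 1 under median-of-ratios scaling. In miR-294 minus WT the 10 became 4 to 5 without a library, 20 when each group had its own weight and 21 when no other libraries entered the fit; the cause was not tested. Quantile normalization reversed Slc2a3 (0.28, limma adjusted p = 0.00555) and Hk2 (0.16, limma adjusted p = 0.0358) in Dgcr8 KO minus WT and Tpi1 in siMbnl1/2 minus miR-294 (0.17, limma adjusted p = 0.0468), none of which the main analysis called. It also turned the median of the 33 genes in Dgcr8 KO minus WT to 0.08, and moved the median of all genes in siMbnl1/2 minus miR-294 to -0.02, from 0.10. Median-of-ratios scaling turned the median of the 33 to 0.05 in miR-294 minus Dgcr8 KO and to 0.01 in miR-294 minus WT. Over all genes it turned 1508 higher and 1882 lower in miR-294 minus WT into 2019 and 1536, and 111 higher and 31 lower in siMbnl1/2 minus Dgcr8 KO into 97 and 75. Correlations of the replicate differences ran from -0.0495 to 0.191 over 12786 genes and no label says that a number marks a shared day, so the libraries share only a number. The replicate block gave 19 calls in miR-294 minus Dgcr8 KO, 20 in Dgcr8 KO minus WT, 0 in siMbnl1/2 minus Dgcr8 KO, 18 in siMbnl1/2 minus miR-294, 9 in miR-294 minus WT and 22 in siMbnl1/2 minus WT. A pseudocount of 0.1, no filter on low values and a fit without variance trend kept all 6 counts within 1.5 times.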
